A study of Mus musculus with 6 samples.

Results

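Wnt signalling was described through 48 genes that encode its ligands, receptors, intracellular relay, transcription factors, feedback targets and secreted antagonists. They were chosen by name, as the rows of an expression table of 44519 rows whose gene name is on a list of pathway members, and all 48 had a row. For the 3 genes with several rows (Fzd7, Tcf7l2 and Dkk3) the row with the highest mean was taken. The cells are horizontal basal cells (HBCs), the keratin-positive stem cells that rest on the basal lamina of the olfactory epithelium, sorted as GFP-positive cells from mouse olfactory neuroepithelium and profiled by bulk RNA sequencing. All 6 libraries came from mice that carry the Krt17-EGFP reporter, which labels the sorted cells. Control libraries (3, replicates 1, 2 and 4) were of mice with the reporter alone, labelled as having no doxycycline. TNF libraries (3, replicates 1, 3 and 4) were of mice with the added transgenes Cyp2g1-rtTA and TRE-TNF, in which inflammation had been induced with doxycycline for 6 weeks. In these mice Cyp2g1, a gene of sustentacular (supporting) cells, lends its promoter to the rtTA activator, which in the presence of doxycycline switches on tumor necrosis factor (TNF). No age, sex or strain background of the animals is stated in the sources used here. Transgenes, doxycycline and inflammation differ together between the groups, and their effects cannot be told apart. The labels describe separate RNA samples but not whether each came from its own animal, so p-values measure only the spread between these samples.

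Wnt proteins are lipid-modified secreted ligands that bind Frizzled receptors together with the co-receptors Lrp5 and Lrp6. In the canonical branch, Dishevelled proteins then hold back a destruction complex of Axin, Apc and Gsk3b, beta-catenin accumulates, and LEF/TCF factors switch on target genes that include the pathway's own brakes. Other branches signal through Frizzled without beta-catenin and orient cells within an epithelium. In the olfactory epithelium, Wnt signalling is known for its role in the activation of basal stem cells and in the formation of new neurons.

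Expression was given as FPKM, fragments normalized to transcript length and library size, in which levels of different genes can be compared per length. The FPKM values summed to 688190 to 838417 per library. The depth of the libraries is unknown. Pearson coefficients over genes, which are not replicates, were 0.922 to 0.972 within the control and 0.909 to 0.983 within the TNF group, and control replicate 4 and TNF replicate 1 stood apart from the other libraries of their groups. Tnf was at 7.64, 28.1 and 7.58 FPKM in the control and 142, 91.9 and 102 FPKM in the TNF libraries, and Cyp2g1 at 246, 256 and 332 against 26.5, 0.221 and 0.533 FPKM. Markers of HBCs, summed over 10 genes, were at 754 to 3120 FPKM in the control and 4620 to 7400 FPKM in the TNF libraries. The largest part of that sum is the Krt14 row, which also names Krt17, and Krt14, Krt5 and Trp63 did not pass the test (adjusted p = 0.0741, 0.11 and 0.196). The 3 of the 10 that rose were Itga6, Itgb4 and Col17a1. Markers of mature olfactory neurons, also 10 genes, were at 3390 to 6660 and 36.8 to 1150 FPKM, and all 10 fell. The libraries labelled as HBCs therefore held neuronal transcripts as well, more in the control group. In bulk samples, fewer cells of a type and less RNA per cell cannot be told apart.

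More Wnt pathway genes were higher than lower in the TNF libraries, whereas across all genes more were lower than higher. Of the 48 genes, 41 reached at least 1 FPKM in at least 3 libraries and were tested (limma on log2(FPKM + 1), adjusted p below 0.05, n = 3 per group). None of the 41 reached that level in TNF libraries alone. Of the 41, 13 rose, where 10.9% of all 15037 tested rows rose, and 2 fell, where 27.2% of all rows fell. The genes that rose were the ligands Wnt5b, Wnt7b and Wnt10a, the receptors Fzd1, Fzd2, Fzd6, Fzd7 and Fzd8, the transcription factors Tcf7, Tcf7l1 and Tcf7l2, the feedback target Axin2 and the secreted protein Dkk3. The genes that fell were the receptor Fzd3 and the relay protein Dvl3. The median log2 change was 0.68 over the 41 genes and −0.22 over all tested rows. All 3 TNF libraries lay above all 3 control libraries for 17 of the 41 genes, against 16.8% of all rows, and all below for 5, against 36.2%.

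The direction of the pathway as a whole depended on whether the libraries were scaled to the HBC marker list. The median log2 change of the 41 genes stayed positive after median-of-ratios (0.84), upper-quartile (0.6) and quantile scaling (0.86). With the libraries scaled to the HBC marker list, the median of all rows moved to −1.17 and that of the 41 genes to −0.33. Of all rows 2.04% then rose and 42.8% fell (307 and 6439 rows, against 1635 and 4083 as deposited and 2658 and 2867 after quantile normalization). Of the Wnt pathway genes, 2 rose on that scale (Wnt10a and Sfrp2) and 4 fell (Fzd3, Dvl3, Apc and Gsk3b), and the changes of Fzd8 and Tcf7l1 turned to −0.03 and −0.11, neither past the threshold. Whether the higher HBC marker level accounts for the rises was not tested. Leaving out 1 library at a time gave 9 to 18 rises and 1 to 3 falls, and Wnt5b, Wnt10a, Fzd1, Fzd2, Fzd7, Fzd8, Tcf7l1, Tcf7l2 and Dkk3 rose each time.

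**Figure D1:**
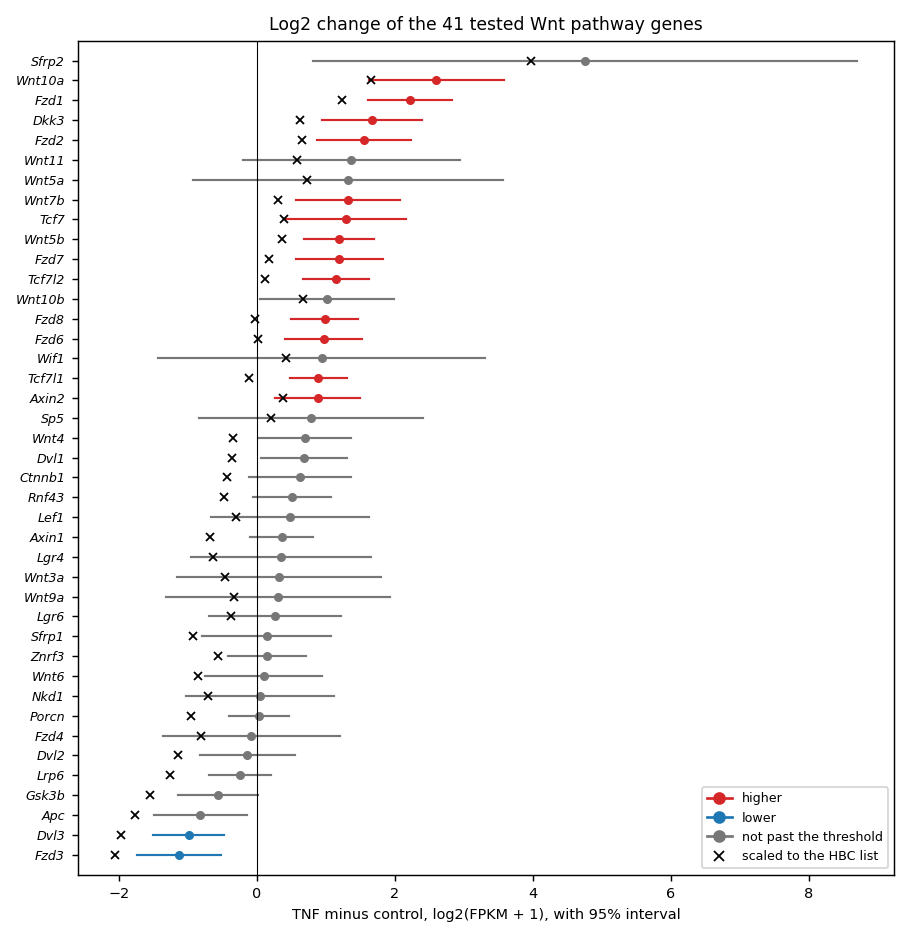
Difference between TNF and control libraries on the log2(FPKM + 1) scale for the 41 tested Wnt pathway genes (n = 3 per group), with points for the estimate, lines for the 95% interval and crosses for the same difference after the libraries were scaled to the HBC marker list. Of the 41 genes 13 rose and 2 fell as deposited, the crosses lie to the left of the points, and among the 13 genes that rose those of Fzd8 (−0.03) and Tcf7l1 (−0.11) lie on the other side of 0.

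Among the ligands, Wnt10a showed the largest change. Wnt10a (chr1:74791516-74804179, plus strand, GENCODE M21 on GRCm38) is a canonical ligand of skin, hair and tooth epithelium. Its levels were 6.38, 9.93 and 2.57 FPKM in the control libraries (replicates 1, 2 and 4, the order used throughout) and 48, 36.3 and 34.2 FPKM in the TNF libraries (replicates 1, 3 and 4). The lowest TNF library lay above the highest control library, and the TNF mean was 6.28 times the control mean. The log2 change was 2.6 ± 0.41 (SE, adjusted p = 0.00341). Its neighbour on the chromosome, Wnt6 (chr1:74771892-74785322, plus strand), was at 12.1, 12.1 and 5.95 FPKM in the control and 6.82, 12 and 13.3 FPKM in the TNF libraries, and the groups overlapped (log2 change 0.1, 95% interval −0.75 to 0.94).

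Wnt7b, a ligand of many developing epithelia, was at 13, 18 and 7.21 FPKM in the control and 34.6, 32.9 and 27.3 FPKM in the TNF libraries. The groups did not overlap, and the log2 change was 1.32 ± 0.32 (adjusted p = 0.0173). The call was lost without TNF replicate 3 (adjusted p = 0.061). Exons of Wnt7b overlap those of a gene on the opposite strand, so its level is uncertain. Wnt5b, which mostly signals without beta-catenin, was lower in level, at 2.04, 1.67 and 1.69 FPKM in the control and 6.87, 4.82 and 4.68 FPKM in the TNF libraries. Its log2 change was 1.19 ± 0.21 (adjusted p = 0.0057), with no overlap.

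The other ligands did not pass the test. Wnt4 had the highest control mean of any ligand, with 22.6, 20.1 and 11.4 FPKM against 35, 27.1 and 24.6 FPKM in the TNF libraries. Its groups did not overlap, and its log2 change was 0.69 ± 0.28 (adjusted p = 0.1, or 0.046 after median-of-ratios scaling). Wnt3a was highest in TNF replicate 1, at 10.5 FPKM, and lay between 1.06 and 5.44 FPKM in the other 5 libraries. Wnt9a, which neighbours Wnt3a on chromosome 11, ranged from 0.588 to 7.04 FPKM in the control and from 1.19 to 6.11 FPKM in the TNF libraries. Wnt10b had 0.334 and 1.63 FPKM in the first control libraries, was listed at 0 in control replicate 4, and lay at 1.4 to 3.37 FPKM in the TNF libraries (log2 change 1.02, adjusted p = 0.091). Wnt5a and Wnt11 were high in TNF replicates 3 and 4 only and are described with the genes of that pattern. Wnt7a was listed at 0 in all 6 libraries and was not tested. Porcn, the enzyme that attaches the lipid to every Wnt protein, was at 10 to 11.1 FPKM in the control and 9.35 to 12.1 FPKM in the TNF libraries (log2 change 0.03, 95% interval −0.41 to 0.46).

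The make-up of the ligand pool was compared as shares of the summed FPKM of all 19 mouse Wnt genes, a measure that does not change when a library is multiplied by a single factor. The sum was 61.4 ± 23.2 FPKM in the control and 144 ± 3.72 FPKM in the TNF libraries (SD, n = 3 each). Wnt10a made up 9.4%, 12.3% and 7.21% of it in the control and 32.4%, 25.3% and 24.3% in the TNF libraries. Its share was higher in every TNF library. Wnt4 went from 30.1% ± 4.47 to 20% ± 3.23 and Wnt6 from 16.5% ± 1.36 to 7.49% ± 2.56, both without overlap. Wnt7b, although it rose in level as deposited, kept a similar mean share, 20.6% ± 1.68 and 21.9% ± 2.21, and its groups overlapped. Wnt4, Wnt6 and Wnt7b were thus the leading ligands of the control libraries by mean share, and Wnt10a, Wnt7b and Wnt4 those of the TNF libraries. With 3 libraries against 3, a two-sided exact permutation test of a single share cannot give a p below 0.1, so no share was tested.

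**Figure D2:**
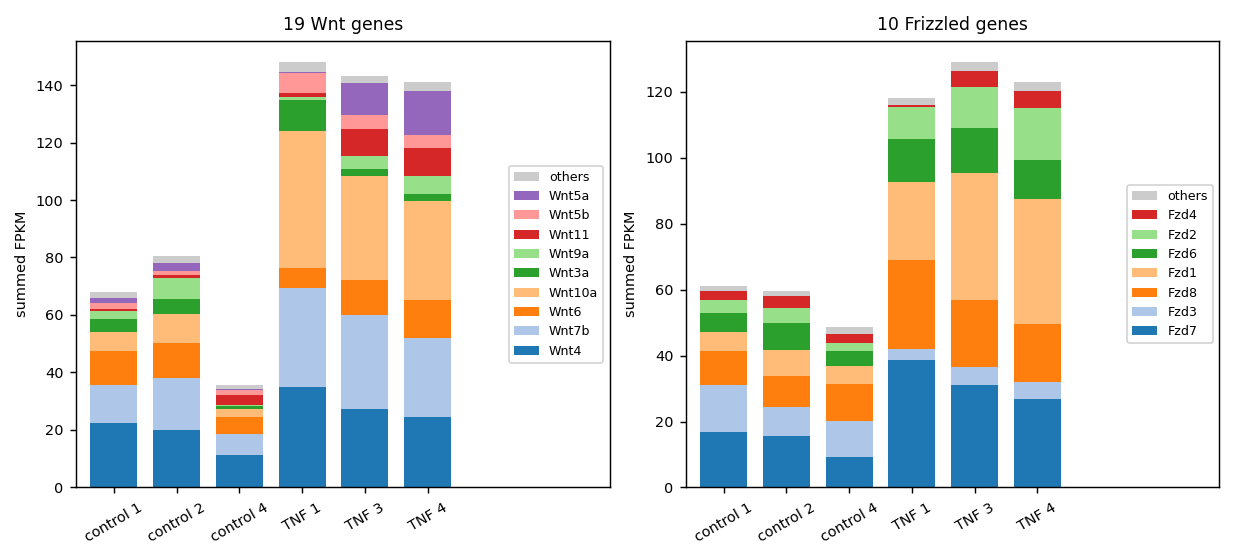
Summed FPKM of the 19 Wnt genes (left) and the 10 Frizzled genes (right) in each library, with a coloured segment for each of the more abundant genes. The Wnt10a segment is 2.57 to 9.93 FPKM tall in the control and 34.2 to 48 FPKM in the TNF libraries, and the Fzd3 segment narrows from 8.55 to 14.4 FPKM to 3.54 to 5.22 FPKM.

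Of the 8 receptor genes tested, the Frizzled genes and Lrp6, 5 rose and 1 fell, where 10.9% and 27.2% of all rows did. All of those 5 were Frizzled genes. Fzd1 changed most. It was at 5.78, 7.86 and 5.41 FPKM in the control and 23.7, 38.8 and 38.2 FPKM in the TNF libraries. Every TNF library was above every control library, with TNF replicate 1 the lowest of the 3. The log2 change was 2.22 ± 0.26 (adjusted p = 0.0012), and 1.23 with the libraries scaled to the HBC list (adjusted p = 0.0665). Fzd2 and Fzd7, which are close relatives of Fzd1 in sequence, moved the same way. Fzd2 was at 4.02, 4.65 and 2.35 FPKM against 9.6, 12.6 and 15.7 FPKM (log2 change 1.55 ± 0.29, adjusted p = 0.00628). Fzd7 was at 16.7, 15.7 and 9.17 FPKM against 38.5, 31.3 and 27 FPKM (log2 change 1.19 ± 0.27, adjusted p = 0.0131). Neither of these relatives showed overlap between the groups.

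Promoter windows of Fzd1 and Fzd7 are shown because these receptors rose together and both windows hold the letters CTTTGA or CTTTGT, the core to which LEF/TCF factors are known to bind. Each window runs from 250 bases before to 50 after the start of the gene in RefSeq (GRCm38.p6), is written 5′ to 3′ on the gene's own strand, and has matches on either strand in capitals. The Fzd1 window is chr5:4758167-4758466 on the minus strand, with 2 matches. The Fzd7 window is chr1:59481897-59482196 on the plus strand, with 1 match. Both were chosen after levels and matches were seen. Of all windows of the Wnt pathway genes 23.8% held these letters, against 31.2% of the windows of all genes. The windows of Tcf7, which also rose, and of Dvl3, which fell, held none. Whether LEF/TCF factors act on Fzd1 or Fzd7 was not tested.
Fzd1: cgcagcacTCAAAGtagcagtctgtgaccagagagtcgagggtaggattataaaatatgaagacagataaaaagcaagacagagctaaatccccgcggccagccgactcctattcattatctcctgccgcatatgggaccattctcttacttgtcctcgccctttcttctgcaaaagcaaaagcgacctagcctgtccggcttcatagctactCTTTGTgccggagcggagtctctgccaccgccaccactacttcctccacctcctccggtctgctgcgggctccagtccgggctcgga
Fzd7: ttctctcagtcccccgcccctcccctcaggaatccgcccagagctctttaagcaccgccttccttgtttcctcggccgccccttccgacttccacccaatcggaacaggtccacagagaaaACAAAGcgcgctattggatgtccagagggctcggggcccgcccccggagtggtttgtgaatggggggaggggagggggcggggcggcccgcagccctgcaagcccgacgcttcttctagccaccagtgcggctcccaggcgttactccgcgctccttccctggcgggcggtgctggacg

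Fzd8, the receptor first known from head development, was at 10.1, 9.56 and 11.3 FPKM in the control and 26.7, 20.5 and 17.7 FPKM in the TNF libraries. The groups did not overlap, and the log2 change was 0.98 ± 0.2 (adjusted p = 0.01), a value that turned to −0.03 with the libraries scaled to the HBC list. Fzd6, a receptor of planar cell polarity in skin and hair, was at 5.75, 8.11 and 4.57 FPKM against 13, 13.4 and 11.8 FPKM (log2 change 0.97 ± 0.24, adjusted p = 0.018). Its call was lost without control replicate 1 (adjusted p = 0.0647), TNF replicate 3 (0.0729) or TNF replicate 4 (0.0529), and its exons overlap those of a gene on the opposite strand.

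Fzd3 went the other way. This receptor is the closest relative of Fzd6 and is known for its part in the guidance of growing axons. It was at 14.4, 8.55 and 11 FPKM in the control and 3.54, 5.22 and 4.92 FPKM in the TNF libraries, with all TNF libraries below all control libraries. It fell by 1.13 on the log2 scale (SE 0.26, adjusted p = 0.0139), and without control replicate 1 the change was −0.96 (adjusted p = 0.0538). Its share of the summed Frizzled FPKM went from 20.2% ± 5.07 to 3.68% ± 0.579, while that of Fzd1 went from 11.3% ± 1.86 to 27.1% ± 5.97. The shares of Fzd7 (24.2% ± 4.63 and 26.3% ± 5.7), Fzd8 (18.6% ± 4.01 and 17.6% ± 4.46) and Fzd6 (10.8% ± 2.43 and 10.3% ± 0.751) overlapped between the groups. Markers of immature olfactory neurons, the cells that extend axons, were also lower in the TNF libraries, as were those of mature neurons. The immature markers summed over 6 genes to 3680 to 7940 FPKM in the control and 262 to 405 FPKM in the TNF libraries, and all 6 fell. Within the groups the order differed. Fzd3 was highest in control replicate 1 and the marker sum in control replicate 4. TNF replicate 1 had the lowest Fzd3 and the highest sum of the TNF group. The part of neurons in the fall of Fzd3 was not tested.

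The remaining Frizzled genes were low. Fzd4 was at 2.81 to 3.53 FPKM in the control and at 0.548, 4.69 and 5.44 FPKM in the TNF libraries (log2 change −0.08). Fzd5, Fzd9 and Fzd10 did not reach the filter. Fzd5 was at 0.339 to 0.622 FPKM against 0.678 to 1.87 FPKM, Fzd9 at 0.521 to 0.996 against 0.141 to 0.456 FPKM, and Fzd10 at 0.399 to 0.655 against 0.389 to 1.22 FPKM. Of the co-receptors, Lrp6 had the highest level, with 17.4, 17.2 and 16.4 FPKM in the control and 11.3, 16.2 and 15.2 FPKM in the TNF libraries. Its TNF libraries lay just below the control libraries, and the difference did not pass the test (log2 change −0.25, 95% interval −0.7 to 0.2). Lrp5 stayed below 1 FPKM in every library, at 0.33 to 0.426 and 0.57 to 0.928 FPKM, and was not tested.

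Lgr4 and Lgr6 bind R-spondins, secreted proteins that heighten the response to Wnt. Lgr4 was at 17.2, 27.2 and 4.77 FPKM in the control and 18.2, 18.1 and 15.7 FPKM in the TNF libraries. The control libraries spread more widely than the TNF libraries and surrounded them (log2 change 0.35, 95% interval −0.96 to 1.66). Lgr6 lay between 0.697 and 3.4 FPKM in all libraries (log2 change 0.26). Their relative Lgr5, a stem cell marker of the gut and hair follicle that is not among the 48 genes, is described with the other pathway genes.

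Of the 7 genes of the intracellular relay all were tested, none rose and 1 fell, near the shares of all rows (10.9% and 27.2%). Their median log2 change was −0.14, against −0.22 for all rows. Dvl3, a Dishevelled protein, was at 12.7, 14.9 and 20 FPKM in the control and 7.19, 7.9 and 6.94 FPKM in the TNF libraries. All TNF libraries were below all control libraries, and Dvl3 fell by 0.99 (SE 0.22, adjusted p = 0.0118). Dvl1 was at 20.7, 17.4 and 28.4 FPKM against 48.4, 29.7 and 31.3 FPKM, without overlap (log2 change 0.68 ± 0.26, adjusted p = 0.0834, or 0.0391 after median-of-ratios scaling). Dvl2 overlapped, at 10.9 to 19.5 and 9.92 to 16.8 FPKM. The summed Dishevelled FPKM was 52.4 ± 13.4 and 56.6 ± 13.6. Within that sum Dvl1 went from 42.4% ± 3.97 to 64% ± 3.54 and Dvl3 from 30.4% ± 2.42 to 13.4% ± 3.13, both without overlap. Exons of Dvl1 and Dvl2 overlap those of genes on the opposite strand, so their levels are uncertain.

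Ctnnb1, which encodes beta-catenin, had the highest level of the 7 relay genes, with 138, 150 and 82.4 FPKM in the control and 132, 208 and 227 FPKM in the TNF libraries. TNF replicate 1 lay within the control range and the other TNF libraries above it (log2 change 0.62, adjusted p = 0.161). Apc and Gsk3b, scaffold and kinase of the destruction complex, had all TNF libraries below all control libraries but did not pass the test. Apc was at 14.2, 13.7 and 8.17 FPKM against 4.87, 6.27 and 7.8 FPKM (log2 change −0.82 ± 0.28, adjusted p = 0.0592), and without control replicate 4 its change was −1.05 (adjusted p = 0.0224). Gsk3b was at 15.8, 15.2 and 14.5 FPKM against 6.93, 12.6 and 10.9 FPKM (log2 change −0.57, adjusted p = 0.108). Axin1, the scaffold that limits the complex, was at 17 to 25.1 and 24.5 to 28.8 FPKM (log2 change 0.36, adjusted p = 0.185).

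Of the 4 LEF/TCF factors, 3 rose, where 10.9% of all tested rows rose. Tcf7l2, the most abundant, was at 16.3, 19.7 and 13.1 FPKM in the control and 38.1, 40.7 and 32.6 FPKM in the TNF libraries. The groups did not overlap, and the log2 change was 1.14 ± 0.2 (adjusted p = 0.00487). A second row named Tcf7l2 was lower in level and also separated the groups, at 2.29 to 4.05 and 8.81 to 18.8 FPKM. Tcf7l1, known mostly as a repressor that is relieved when beta-catenin binds, was at 9.76, 11 and 8.45 FPKM against 19.2, 18.5 and 18.9 FPKM. It rose by 0.89 ± 0.17 (adjusted p = 0.00744), a change that turned to −0.11 with the libraries scaled to the HBC list, and its exons overlap those of a gene on the opposite strand. Tcf7 was at 1.25, 2.11 and 4.87 FPKM against 8.43, 6.85 and 7.17 FPKM (log2 change 1.29 ± 0.37, adjusted p = 0.0309). Its call was lost when any library but control replicate 4 was left out (adjusted p from 0.0581 to 0.0904). Lef1 was at 1.31 to 3.64 FPKM in the control and 1.14, 4.76 and 4.86 FPKM in the TNF libraries (log2 change 0.48, adjusted p = 0.464). The summed FPKM of the 4 factors was 31 ± 2.81 and 67.1 ± 3.6, of which Tcf7l2 made up 52.7% ± 7.88 and 55.2% ± 3.46.

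Feedback targets, genes that canonical signalling switches on and that restrain it in turn, gave 1 rise among 5 tested, where 10.9% of all rows rose, a count too small to set them apart from other genes. Axin2, the target most used as a readout of canonical signalling, was low in every library, with 0.318, 1.1 and 0.427 FPKM in the control and 1.3, 2.54 and 2.03 FPKM in the TNF libraries. Every TNF library was above every control library, control replicate 2 coming close to TNF replicate 1. The log2 change was 0.88 ± 0.26 (adjusted p = 0.0355). Its call was lost without control replicate 1 (adjusted p = 0.119), control replicate 4 (0.0907), TNF replicate 3 (0.123) or TNF replicate 4 (0.106), and without a filter (0.0722). Axin2 reached the filter with all 3 TNF libraries and only 1 control library, and its exons overlap those of a gene on the opposite strand.

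Rnf43 and Znrf3 encode membrane ubiquitin ligases that remove Frizzled receptors from the cell surface. Rnf43 had the highest level of the feedback targets, with 11.4, 13 and 7.63 FPKM in the control and 13.2, 16.2 and 16.6 FPKM in the TNF libraries. The lowest TNF library was just above the highest control library, and the difference did not pass the test (log2 change 0.51 ± 0.24, adjusted p = 0.139). Znrf3 overlapped, at 1.35 to 2.72 and 1.89 to 2.66 FPKM. Nkd1, an inhibitor of Dishevelled, was at 2.15 to 3.31 FPKM in the control and 0.83, 3.63 and 4.99 FPKM in the TNF libraries. Notum, an enzyme that strips the lipid from Wnt proteins, did not reach the filter, at 0.188 to 0.821 FPKM in the control and 0.218, 1.05 and 2.07 FPKM in the TNF libraries.

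Sp5, a transcription factor known as a direct canonical target, was at 0.179, 0.501 and 2.12 FPKM in the control and 0.0968, 3.37 and 4.87 FPKM in the TNF libraries. TNF replicate 1 was the lowest of all 6 libraries and the other TNF libraries were the highest. The log2 change was 0.78 ± 0.68 (adjusted p = 0.403), and 1.52 without TNF replicate 1 (adjusted p = 0.0346). Its promoter window, chr2:70474673-70474972 on the plus strand, is shown because it held 5 matches to the LEF/TCF letters, the most of any window of the 48 genes. It was chosen after its values and matches were seen, and its matches are again in capitals.
Sp5: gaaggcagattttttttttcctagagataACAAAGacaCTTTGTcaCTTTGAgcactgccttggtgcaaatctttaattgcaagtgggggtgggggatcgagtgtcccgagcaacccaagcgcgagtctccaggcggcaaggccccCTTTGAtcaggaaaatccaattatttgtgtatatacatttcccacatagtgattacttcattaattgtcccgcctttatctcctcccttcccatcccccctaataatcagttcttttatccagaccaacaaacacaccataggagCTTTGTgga

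Promoter windows of 300 bases were found in the RefSeq table for 32 of the 48 genes, 42 windows in all. Of these windows 23.8% held CTTTGA or CTTTGT on either strand, against 31.2% of all 32851 windows. The AP-1 letters TGANTCA stood in 4.76% of them (a window of Wnt5b and that of Dvl2), against 7.81% of all windows. Matches to the NF-kB motif stood in 2.38% (Wnt10b), against 4.51%. The windows of Tcf7, Dvl3 and Axin2 held none of the LEF/TCF letters, and those of Tcf7l1 and 1 of 2 windows of Tcf7l2 held 1 match each. A match is only a stretch of letters, and the 3 motifs may overlap. Wnt7b, Wnt10a, Fzd2, Fzd3, Fzd6, Fzd8 and Dkk3 are among the 16 genes without a window there.

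The secreted antagonists gave 1 rise among 4 tested, where 10.9% of all rows rose, and held the highest single value of the 48 genes. Sfrp1, a decoy that binds Wnt proteins, was at 90.4, 94.3 and 40.4 FPKM in the control and 52.3, 87.3 and 101 FPKM in the TNF libraries, and the groups overlapped (log2 change 0.14, 95% interval −0.8 to 1.08). Dkk3, a secreted relative of the Dickkopf inhibitors whose action on Wnt signalling is not settled, was at 35.5, 24.9 and 16.3 FPKM against 66.3, 76.5 and 99.9 FPKM. It rose by 1.67 ± 0.3 (adjusted p = 0.00578), with no overlap.

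Sfrp2, another decoy, was at 1.46, 2.05 and 1.12 FPKM in the control and at 2.56, 281 and 309 FPKM in the TNF libraries. Although each TNF library was above each control library, TNF replicate 1 was close to the control level and far from the other TNF libraries. The log2 change was 4.75 ± 1.65 (95% interval 0.81 to 8.7, adjusted p = 0.0617), and 6.88 without TNF replicate 1 (adjusted p = 0.000137). Dkk2, which binds the Lrp co-receptors, was not tested because only 2 libraries reached 1 FPKM. It was at 0.183 to 0.432 FPKM in the control and 0.0788, 13.1 and 21.5 FPKM in the TNF libraries. Wif1, which sequesters Wnt proteins, was at 3.45, 2.88 and 0.37 FPKM against 0.142, 8.86 and 13.9 FPKM (log2 change 0.94, adjusted p = 0.494).

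**Figure D3:**
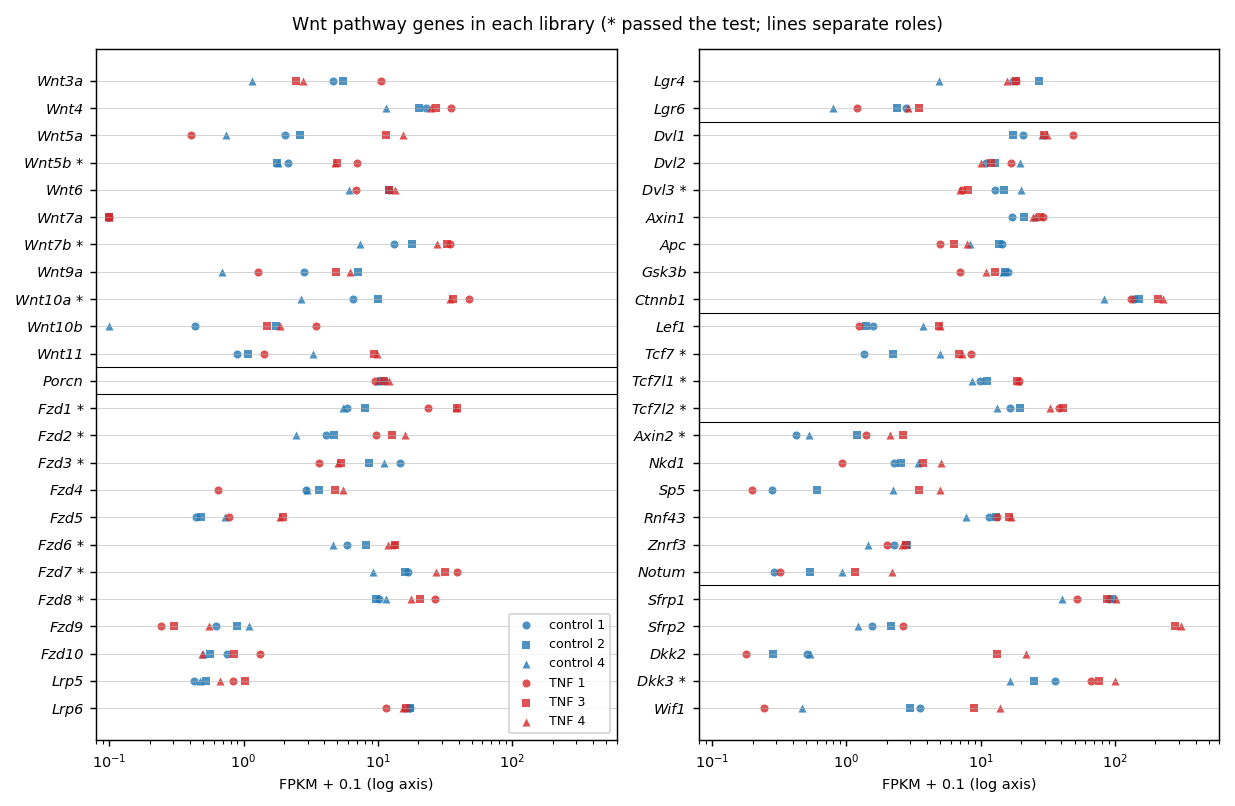
FPKM of the 48 Wnt pathway genes in each of the 6 libraries on a log axis, with 0.1 added so that values listed at 0 can be drawn, blue symbols for control and red for TNF libraries. Symbols of the genes marked with an asterisk passed the test and do not overlap between the groups, whereas for Sfrp2, Dkk2 and Wif1 TNF replicate 1 (red circle, 2.56, 0.0788 and 0.142 FPKM) is far to the left of the other TNF libraries.

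The TNF libraries thus differed among themselves at a recurring set of genes. For 9 of the 41 tested genes, TNF replicates 3 and 4 were above all control libraries and TNF replicate 1 was not, a pattern shown by 8.23% of all tested rows. These were Wnt5a, Wnt11, Fzd4, Lgr6, Ctnnb1, Lef1, Nkd1, Sp5 and Wif1. Wnt5a, the leading ligand of the branch without beta-catenin, was at 1.93, 2.51 and 0.637 FPKM in the control and 0.309, 11.4 and 15.2 FPKM in the TNF libraries, so TNF replicate 1 was the lowest of the 6. Wnt11 was at 0.791, 0.982 and 3.19 FPKM against 1.32, 9.28 and 9.83 FPKM. Without TNF replicate 1 the log2 change of Wnt5a went from 1.32 to 2.47 (adjusted p from 0.311 to 0.00403) and that of Wnt11 from 1.37 to 2.1 (adjusted p from 0.149 to 0.0088). Such genes were singled out for a low TNF replicate 1, so leaving it out raises their change by construction. The adjusted p-values without it, also those of Sp5 and Sfrp2, are therefore no support for a rise. Exons of Wnt5a, Wnt11, Ctnnb1, Lef1 and Sfrp2 overlap those of genes on the opposite strand.

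Summed markers of fibroblasts and of endothelial cells had the same pattern, although not every marker did. Col1a1 (113 and 105 FPKM) and Cldn5 (9.78 and 12.2 FPKM) lay within the control range in TNF replicates 3 and 4. Both were lowest in TNF replicate 1. The 8 fibroblast markers summed to 135 to 525 FPKM in the control and to 41.5, 1070 and 1530 FPKM in the TNF libraries, and 0 of the 5 tested passed the test. Dpt was listed at 0 in TNF replicate 1, where Pdgfra was at 0.143 FPKM, against 29.7 and 34.9 FPKM in the other TNF libraries. The 8 endothelial markers summed to 48.9 to 92.7 FPKM in the control and to 2.15, 161 and 225 FPKM in the TNF libraries, with Kdr listed at 0 in TNF replicate 1 and 0 of 5 tested past the threshold. The 6 markers of pericytes and smooth muscle were divided. Notch3 and Cspg4 lay within the control range in TNF replicates 3 and 4. Acta2, Pdgfrb and Myh11 shared the pattern, with 5.46, 0.185 and 0.229 FPKM in TNF replicate 1 against 114, 28.7 and 5.71 FPKM in TNF replicate 3 and 183, 35.1 and 7.89 FPKM in TNF replicate 4. Rgs5, the 1 of 5 tested that passed the test, was high in all 3 TNF libraries and made up most of the list's sum, which was 314 to 390 FPKM in the control and 1400, 1490 and 1510 FPKM in the TNF libraries. The part of such cells in the levels of Wnt5a, Wnt11, Sfrp2, Dkk2 and Wif1 was not tested. TNF replicate 1 had the lowest fibroblast and endothelial sums of all libraries and the highest HBC sum (7400 FPKM). The genes that rose were divided there. Of the TNF libraries, it had the highest Wnt5b, Wnt7b, Wnt10a, Fzd7, Fzd8, Tcf7 and Tcf7l1. It had the lowest Fzd1, Fzd2, Axin2 and Dkk3, and Fzd6 and Tcf7l2 lay between. The part of cell make-up in these levels was not tested.

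Control replicate 4 departed from the other control libraries too. It had the lowest value of the control group for 8 of the 10 tested ligands, and its HBC sum was 754 FPKM against 2490 and 3120 FPKM. Its macrophage markers summed to 1010 FPKM against 143 and 154 FPKM, its mature neuron markers to 6660 FPKM against 3630 and 3390 FPKM, and its immature neuron markers to 7940 FPKM against 5180 and 3680 FPKM. Without control replicate 4 and TNF replicate 1 together, 23 of the 41 genes rose and 4 fell, where 18.9% and 39.7% of all rows did. The 13 genes that rose and the 2 that fell with all libraries were among them. The log2 change of Fzd4 then turned to 0.54 (adjusted p = 0.0483) and that of Wnt3a to −0.77 (adjusted p = 0.0142).

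**Figure D4:**
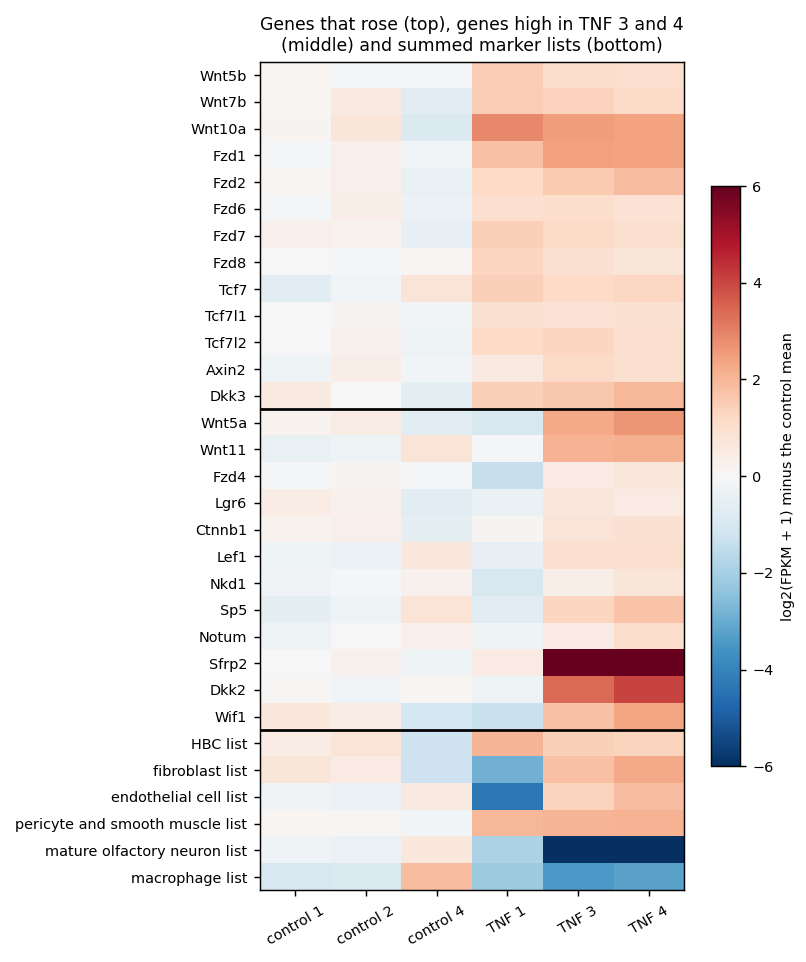
Log2(FPKM + 1) of each library minus the control mean, for the 13 Wnt pathway genes that rose (top), 12 that were high in TNF replicates 3 and 4 (middle) and 6 summed marker lists (bottom), with colours limited to −6 to 6. The top genes are above the control mean in all 3 TNF libraries, though pale for Axin2 in TNF replicate 1 (1.3 FPKM). This is the scale as deposited, and the signs of Fzd8 and Tcf7l1 turn when it is set to the HBC list. The middle genes share their pale or blue TNF replicate 1 column with the fibroblast list (41.5 FPKM) and the endothelial list (2.15 FPKM).

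Another 79 genes of the pathway, from a separate list, were followed in the same fit. Of the 59 tested, 13 rose and 8 fell, where 10.9% and 27.2% of all rows did, and their median log2 change was 0.18, against −0.22 for all rows. A mixed list of receptors, co-receptors, Kremen genes and planar polarity genes gave 6 rises and 1 fall among 16 tested. The rises were Lgr5, Ptk7, Kremen1, Vangl1, Celsr1 and Gpc4, and the fall was the polarity gene Celsr3, so they are not a count of Wnt receptors. Targets gave 5 rises among 10, and relay proteins 3 falls among 14, the last near the share of all rows. Of the 13 further ligands 12 did not reach the filter. Wls, the carrier that brings Wnt proteins to the cell surface, was at 236, 258 and 111 FPKM in the control and 222, 205 and 212 FPKM in the TNF libraries (log2 change 0.17, 95% interval −0.62 to 0.95).

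Lgr5 was among those that rose. It was at 1.77, 1.73 and 1.77 FPKM in the control and 16.2, 12.6 and 12.7 FPKM in the TNF libraries. The control libraries were nearly equal, and the TNF mean was 7.88 times theirs (log2 change 2.42 ± 0.2, adjusted p = 0.000476). Prom1, a surface marker of several stem cells, was at 19.7, 29.5 and 16.6 FPKM against 172, 234 and 220 FPKM (log2 change 3.22 ± 0.24, adjusted p = 0.00042). Exons of Prom1 overlap those of a gene on the opposite strand, so its level is uncertain. Cd44, a hyaluronan receptor and known target, was at 4.59, 6.21 and 4.26 FPKM against 19.5, 24.8 and 22.4 FPKM (log2 change 1.96 ± 0.21, adjusted p = 0.000925). Both had no overlap between the groups. The polarity genes Celsr1 (1.04, 2.09 and 0.287 against 13.1, 12 and 10 FPKM) and Ptk7 (5.56, 8.54 and 6.06 against 23.3, 22 and 21.2 FPKM) rose, with log2 changes of 2.66 and 1.6 (adjusted p = 0.00168 and 0.00165). Scaled to the HBC list, Cd44 (log2 change 0.99, adjusted p = 0.124) and Ptk7 (0.62, adjusted p = 0.321) no longer passed, while Lgr5, Prom1 and Celsr1 did.

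Of the targets most often cited, Myc rose and Ccnd1 did not pass the test. Myc was at 44.1, 55.1 and 27.3 FPKM in the control and 59.1, 106 and 95.1 FPKM in the TNF libraries (log2 change 1.04 ± 0.33, adjusted p = 0.0444), a change that turned to −0.01 with the libraries scaled to the HBC list. Its call was lost without control replicate 1 (adjusted p = 0.0969), control replicate 4 (0.104), TNF replicate 3 (0.141) or TNF replicate 4 (0.128). Ccnd1, which encodes cyclin D1, was at 13.2, 14.6 and 20.9 FPKM against 16.9, 36.1 and 32.8 FPKM (log2 change 0.73, adjusted p = 0.122, or 1.06 and 0.0124 without TNF replicate 1). TNF replicate 1 was the lowest TNF library for Ccnd1, so the value without it is no support for a rise.

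Of the 8 other pathway genes that fell, those given here are the 5 with the smallest p among genes with a mean of at least 2 FPKM in a group, which leaves out Celsr3 (log2 change −1.27, adjusted p = 0.0014). Ndp, which encodes the Fzd4 ligand Norrin, was at 41.4, 27.9 and 53.9 FPKM in the control and 1.34, 0.413 and 0.374 FPKM in the TNF libraries (log2 change −4.62 ± 0.33, adjusted p = 0.000397). Dkkl1, a distant relative of the Dickkopf proteins, was at 20.3, 14.8 and 57.1 FPKM against 0.58, 0.307 and 0.138 FPKM (log2 change −4.34 ± 0.49, adjusted p = 0.00108). Apc2, a relative of Apc found mainly in neurons, was at 2.54, 2.02 and 2.99 FPKM against 0.178, 0.0736 and 0.156 FPKM (log2 change −1.62, adjusted p = 0.000927). Invs and Bcl9 fell by 1.32 and 1.44 on the log2 scale (adjusted p = 0.00229 and 0.00863). The neuron marker sums given above were lower in the same libraries, and their part in these falls was not tested.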

How the data were processed

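Cells were sorted into a lysis reagent, RNA with a RIN above 7 was kept, and Nextera libraries were made after SMARTer amplification from 5 ng, per the labels' protocols. The submitters' processing notes name bcl2fastq, FastQC 0.10.1, TopHat2 2.1.1, Cuffdiff 2.2.1 and the build mm10. What each tool did, its settings, and the handling of strand and of amplification copies are not stated there. The deposited table holds an FPKM value per gene and library, although its title also speaks of raw counts. Since 99.98% of its non-zero values were fractional, it was not fitted with a count model. The table held 0 columns of other samples. FPKM from amplified RNA keeps no absolute depth, and 121 rows pair a listed 0 in some library with more than 50 FPKM elsewhere.

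Values were tested as log2(FPKM + 1), that is with a pseudocount of 1, by limma 3.58.1 (R 4.3.3, variance trend by level). The fit took all 15037 rows that reached 1 FPKM in 3 or more libraries, with the 2 groups as terms and no covariate. Changes on this scale understate those of low genes. P-values were adjusted over all rows by the Benjamini-Hochberg method at 0.05. The Wnt pathway genes, the other pathway genes and the marker lists were chosen with earlier results of these data known, so counts within them are descriptions. Values are given in full for members that passed the test and reached a mean of 2 FPKM in a group, or that led their role by mean, and for others that the text turns on. Up to 5 other pathway genes in each direction with a mean of at least 2 FPKM were named by smallest p, with Wls, Myc and Ccnd1. Positions are those of GENCODE M21 (GRCm38), whose bounds 25 of the 48 rows shared. By that annotation, exons of 13 of the 48 genes overlap those of another gene. Among the other pathway genes named, so do exons of Prom1, Fosl1, Ccnd1, Apc2, Invs, Vangl1 and Celsr3, and their levels are uncertain. Promoters are from RefSeq (GRCm38.p6).

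Tested on simulated data for this comparison (200 of 15037 rows changed, 5 draws), the procedure found 23%, 69% and 94.2% of genes given log2 changes of 1, 2 and 4, and 5.5% of its calls were false. The simulation differed from the data, in which 1635 rows rose and 4083 fell. Low rows were not among those changed, and noise was drawn separately for each row. These rates may therefore not hold for the data, least of all for low genes. Alternatives were a pseudocount of 0.1, no filter, an adjusted p below 0.01, median-of-ratios, upper-quartile, quantile and HBC-list scaling, the replicate number as a block and each library left out. Leaving out control replicate 4 together with TNF replicate 1 was an alternative chosen after seeing the data. No outlier test was run, since groups held 3 libraries each.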

Additional observations from a re-analysis of the deposited data

How the results depend on the processing

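The 13 rises and 2 falls among the Wnt pathway genes became 13 and 2 with a pseudocount of 0.1, 11 and 2 without a filter (Tcf7 and Axin2 lost), 15 and 2 after median-of-ratios, 13 and 3 after upper-quartile and 16 and 2 after quantile scaling. They became 2 and 4 when scaled to the HBC list, 7 and 0 at an adjusted p below 0.01, and 23 and 4 without control replicate 4 and TNF replicate 1. Leaving out 1 library at a time gave 9 to 18 rises and 1 to 3 falls. For the other pathway genes (13 rises and 8 falls) the HBC list gave 4 rises, an adjusted p below 0.01 gave 7 and the joint omission 24, and single omissions gave 7 to 19 rises and 6 to 8 falls. For all rows (1635 and 4083), quantile scaling gave 2658 rises, the HBC list 307 and 6439, an adjusted p below 0.01 787 and 2504, and the joint omission 2835 rises. Single omissions gave 938 to 2205 rises and 2802 to 4946 falls. Changes of sign, where either value was past the threshold, were those of Fzd8 (−0.03), Tcf7l1 (−0.11) and Myc (−0.01) on the HBC list, and of Wnt3a (−0.77) and Fzd4 (0.54) in the joint omission. The cause of these shifts was not tested. With 3 libraries a group and unknown depth, the precision of genes near the filter, such as Axin2 and Sp5, cannot be given from fragment numbers.

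The groups share replicate numbers 1 and 4, but nothing in the labels pairs the samples. Deviations from the group means correlated at −0.06 and −0.09 between libraries of the same number. With the replicate number as a block, 6 Wnt pathway genes rose (Wnt7b, Wnt10a, Wnt10b, Fzd1, Sfrp2 and Dkk3) and 0 fell. Of the other pathway genes 10 rose and 5 fell, and of all rows 744 rose and 2246 fell. Replicate 2 exists only in the control group and replicate 3 only in the TNF group. With the block, the changes therefore rest on replicates 1 and 4 of each group alone, and few degrees of freedom are left.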

Other observations

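Other pathway genes shared the split among the TNF libraries. Of the 59 tested, 14 had TNF replicates 3 and 4 above all control libraries and TNF replicate 1 not, against 8.23% of all tested rows. The examples here were chosen after their values were seen. Rspo1, an R-spondin that acts through Lgr receptors, was at 0.172 to 0.309 FPKM in the control and 0.199, 8.93 and 16.7 FPKM in the TNF libraries, and was not tested because only 2 libraries reached 1 FPKM. Sfrp4, a relative of Sfrp2, was at 5.03, 4.65 and 0.293 FPKM against 0.443, 29.8 and 51.7 FPKM. Nkd2 was at 2.22 to 3.75 FPKM in the control and 0.208, 23 and 35.9 FPKM in the TNF libraries. Fosl1, an AP-1 subunit listed among Wnt targets, was at 3.6, 2.2 and 2.24 FPKM against 5.44, 80 and 66 FPKM, so it was above the control in TNF replicate 1 as well (log2 change 3.17 ± 0.93, adjusted p = 0.0353).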
